A study of Homo sapiens with 4 samples.

Results

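The human myeloma line MM.1S, an established cell line, was compared after 16 h and after 8 h of exposure to 250 nM MLN4924, with 1 array at each time. All genes were compared, each represented by its brightest probe set, and 12446 of 19775 genes with a probe set of their own were bright enough on the arrays to count as measured. These 2 arrays belong to a series of 4. The other 2 hold MM.1S cells given the vehicle DMSO, whose label gives no culture time, and MM.1S cells after 24 h of 250 nM MLN4924. Every array is of the same line grown in culture, so the 3 treated groups share the drug and its dose and differ in time. No vehicle array is labelled 8 h or 16 h, so hours under drug and hours in culture cannot be told apart. The comparison asks what set the later profile under drug apart from the earlier one. The control and 24 h arrays were used to choose genes by difference only where this is stated, and their values are given beside the others.

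MLN4924 blocks the enzyme that activates NEDD8, a small protein related to ubiquitin. NEDD8 is attached to cullins, the scaffolds of the cullin-RING ubiquitin ligases, and these ligases tag many short-lived proteins for the proteasome only while their cullin carries it. Known substrates include CDT1, which licenses replication origins, NRF2, the activator of antioxidant genes that KEAP1 and CUL3 keep low, the NF-kB inhibitor IkB, and HIF-1 alpha. Myeloma cells are malignant plasma cells, which secrete much protein and depend on its disposal.

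The arrays carried the profile of plasma cells at both times. All 10 plasma cell markers looked up were measured, and their summed intensity was 66025 at 8 h and 71746 at 16 h. The few defining markers looked up for other cell types were mostly dim: the 2 B cell markers, MS4A1 and PAX5, summed to 161 and 168, the 4 T and NK cell markers to 308 and 269, the 3 myeloid markers to 141 and 131, and the 5 stromal markers to 510.3 and 505. The 2 erythroid markers summed to 1119 and 1094, nearly all of it from HBB, a globin. Of a longer B cell list 4 members were measured and brighter, CR2 at 504 at 8 h and 360.4 at 16 h, CD79B at 275 at 8 h and 327 at 16 h, CD22 at 253 at 8 h and 253 at 16 h and CD79A at 174 at 8 h and 178 at 16 h. The brightest of 5 measured members of a longer erythroid list was HBD, at 1270 at 8 h and 1347 at 16 h. The brightest of 7 in a longer T and NK cell list was CD5, at 213 at 8 h and 235 at 16 h. No detection calls came with the values, so none of these can be called absent. The median intensity of the arrays lay between 92.2 and 95.4, and the 3'-to-5' ratio of GAPDH between 1.18 and 1.21, a check on RNA integrity. Control transcripts added at hybridisation were lower on the 16 h array than on the 8 h array by a median log2 difference of -0.19 over 9 probe sets, and those added to the RNA by -0.017 over 12. The part of these in the results was not tested.

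Over the 12446 measured genes most values were close at the 2 times. The median log2 difference, 16 h minus 8 h, was 0.015, and 6578 genes (52.9%) lay above 0. The 16 h value was 2-fold higher or more in 27 genes (0.217%) and 2-fold lower or more in 20 genes (0.161%). The 27 became 14 with a pseudocount of 32 in place of a floor, and 16 with the median over all probe sets of a gene, dim ones included. At a threshold of 1.5-fold, 231 genes (1.86%) were higher and 201 genes (1.61%) were lower. With 1 array per time there was no replicate and no test, so every difference is that of 1 array from another. A partial measure of technical spread came from 5719 genes with 2 or more measured probe sets, whose differences had a pooled SD of 0.18 on the log2 scale. It leaves out the spread between cultures. Of the 20 genes at least 2-fold lower, 12 had another measured probe set, and in 11 of them every such probe set also lay below 0. Of the 27 at least 2-fold higher, 7 had one, and in 5 of them every such probe set also lay above 0. Over all 5719 genes, all probe sets had the same sign in 3354 (58.6%).

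**Figure D1:**
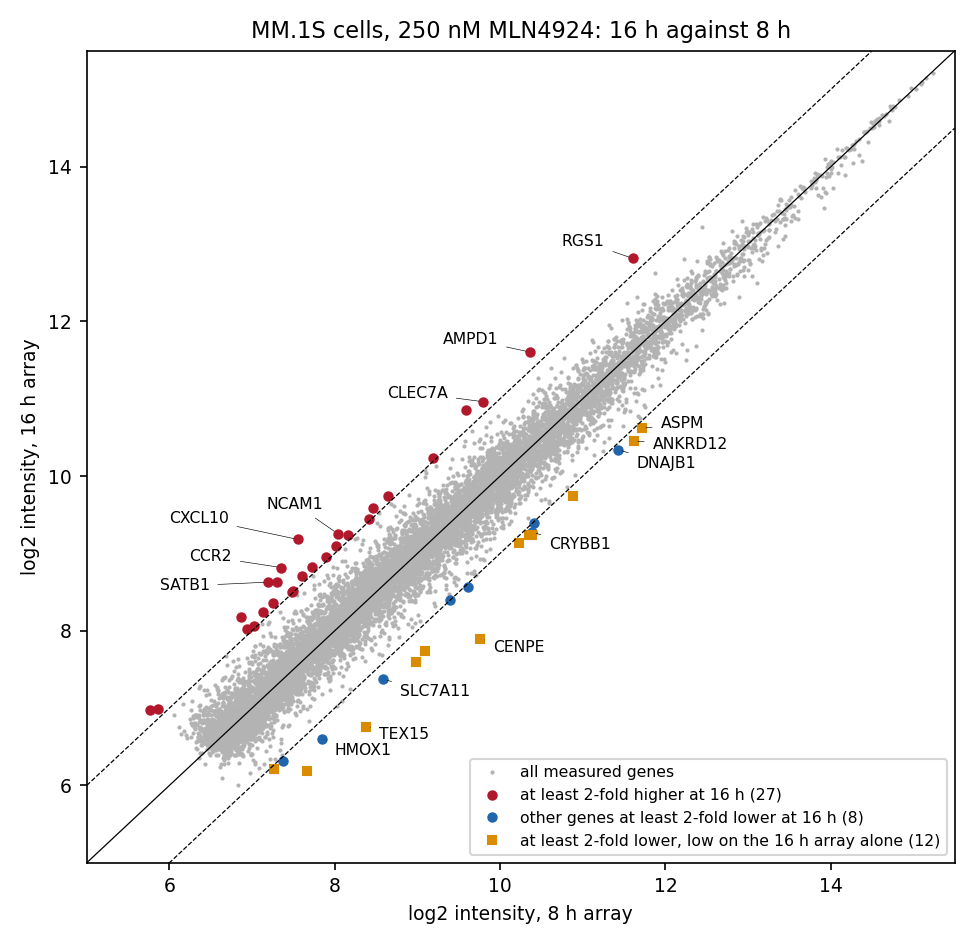
Log2 intensity on the 16 h array (vertical axis) against log2 intensity on the 8 h array (horizontal axis), 1 point per measured gene (12446 genes). The solid line marks equal values and the dashed lines a 2-fold difference. The 27 genes above the upper dashed line include RGS1, AMPD1 and CXCL10. The 20 genes below the lower one include CENPE, HMOX1 and DNAJB1. The 12 of these 20 drawn as squares were low on the 16 h array alone, at least 0.5 (log2) lower there than at both 8 h and 24 h.

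The pair of arrays not used here gave a separate view of the same genes. The difference of the 24 h array from the control array shares no array with the difference of 16 h from 8 h. Of the 231 genes at least 1.5-fold higher at 16 h, 217 (93.9%) were also higher at 24 h than in the control, against 52.6% of all measured genes. Of the 201 genes at least 1.5-fold lower, 176 were below the control at 24 h and 25 (12.4%) were above it. Among the 27 genes past 2-fold upward 26 were above the control at 24 h, and among the 20 past 2-fold downward 2 were. Across the 12446 genes the 2 differences had a Pearson r of 0.56 and a Spearman rho of 0.50. These are descriptions across genes, which are not independent replicates, and both pairs share the probes.

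**Figure D2:**
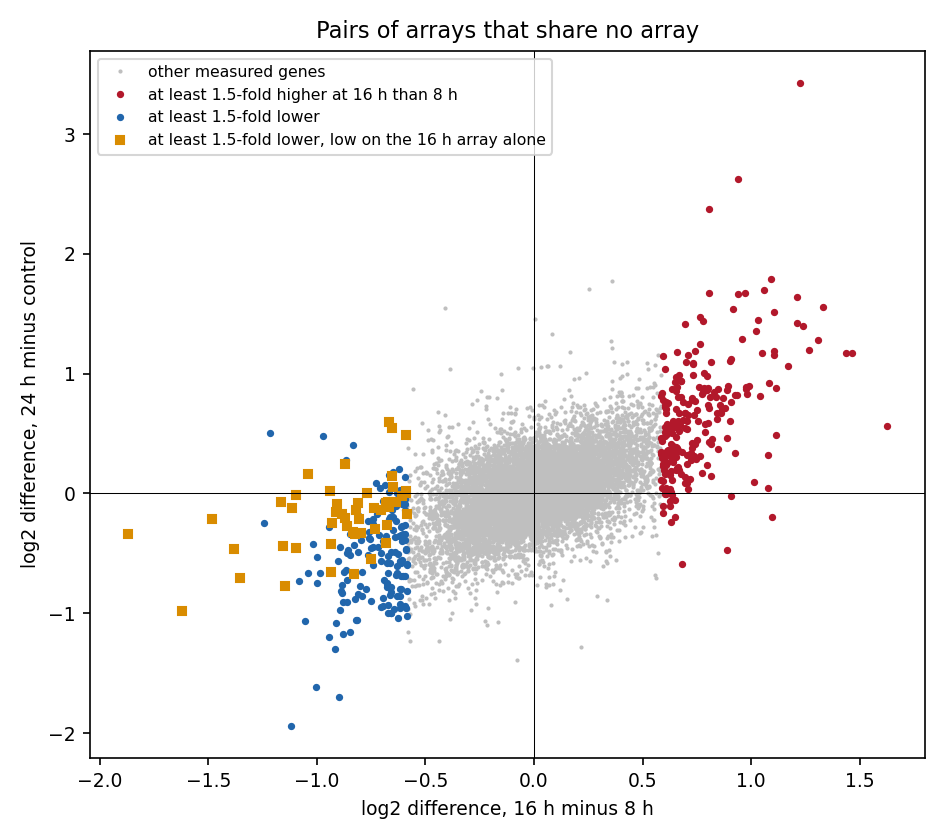
Log2 difference of the 24 h array from the control array (vertical axis) against the log2 difference of the 16 h array from the 8 h array (horizontal axis), 1 point per measured gene. The 2 axes share no array. Of the 231 genes drawn in red 217 lie above the horizontal line, and of the 201 drawn in blue or as squares 176 lie below it.

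Gene lists of known function were described by their counts and medians. The lists with the lowest medians were DNA repair and checkpoint genes (-0.47), DNA replication and G1/S genes (-0.46), cholesterol synthesis genes (-0.36), heat shock genes (-0.33), mitosis and G2/M genes (-0.27), and MYC and nucleolar genes (-0.25). Among lists with at least 5 measured members, cell type markers left out, those with the highest medians were glucocorticoid receptor targets (0.35), FOXO targets and mTOR brakes (0.31), and cell cycle brakes (0.23). The plot of list members shows how narrow or wide each list was around its median.

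**Figure D3:**
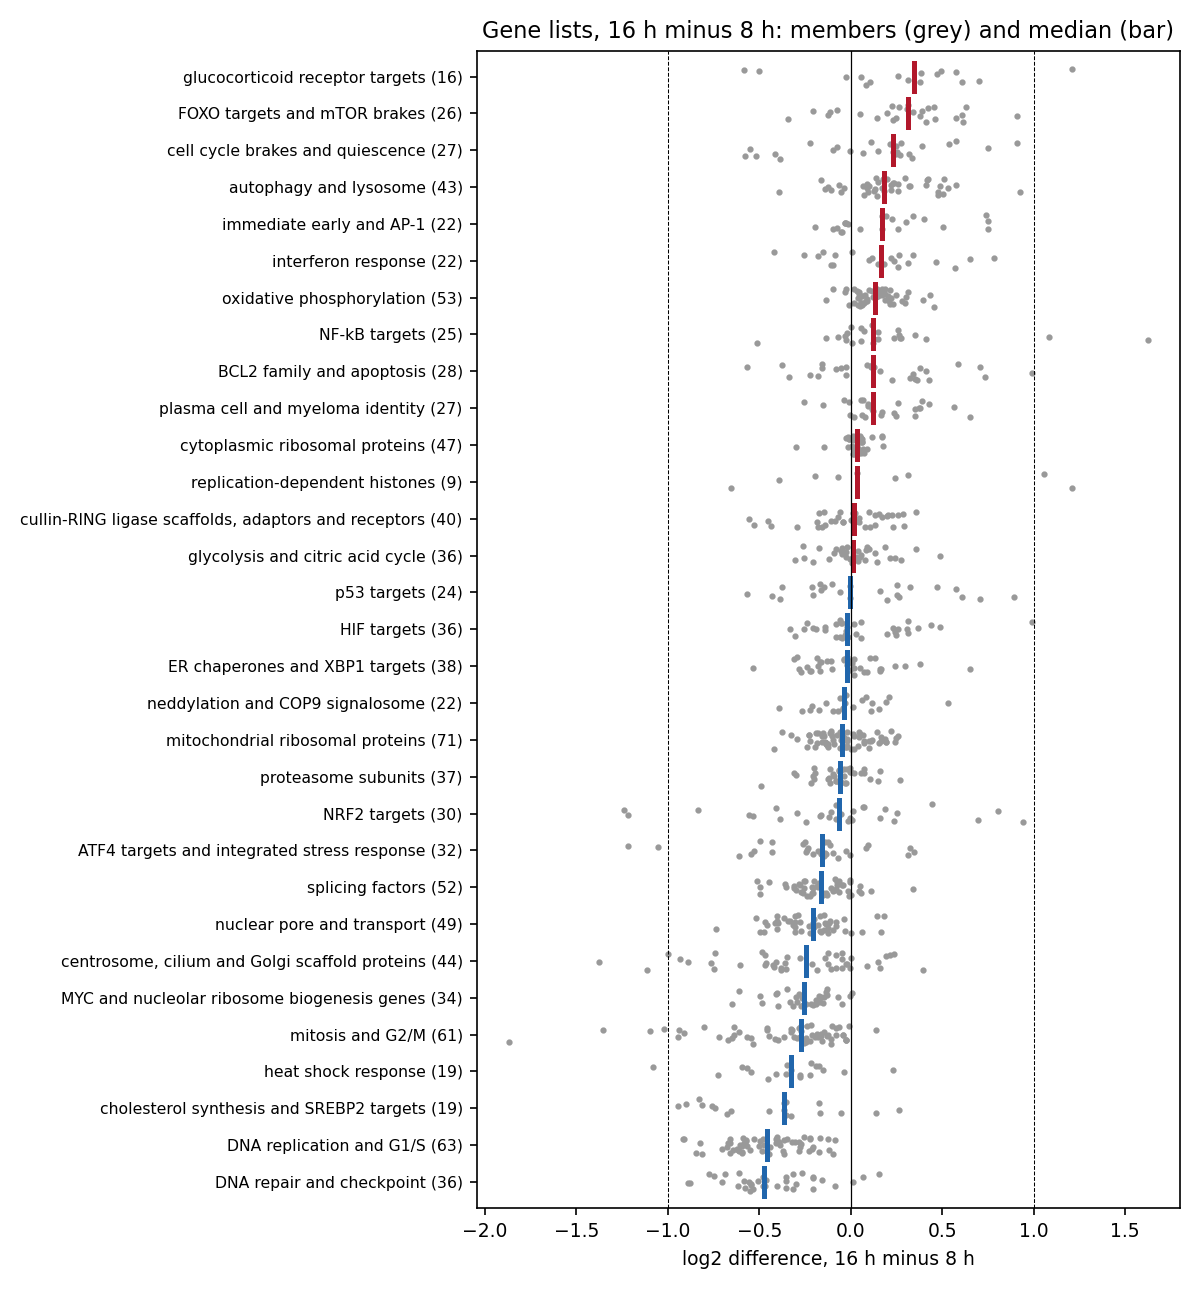
Log2 difference, 16 h minus 8 h (horizontal axis), for each measured member (grey point) of the gene lists with at least 5 measured members (number in brackets), with the list median as a bar, red above 0 and blue at or below it. Lists of cell type markers are left out. Dashed lines mark 2-fold. The replication list lies wholly below 0, while the NRF2 list has members on both sides, from -1.24 to 0.94.

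Genes of DNA replication were lower at 16 h than at 8 h without exception. All 63 measured members of 64 listed lay below 0, whereas 52.9% of all measured genes lay above it, and 21 (33.3%) were at least 1.5-fold lower, against the 1.61% of all measured genes given above. No member was past 2-fold. The promoters of 2 of the lowest members are shown because they hold a match to the E2F motif, the sequence through which E2F factors switch on S-phase genes. They run from 250 bases before to 50 bases after the RefSeq transcription start on GRCh38.p14, written 5' to 3' on the gene's strand, with the E2F word in capitals. CDC6 lies at chr17:40287629-40287928 on the plus strand and GINS2 at chr16:85688905-85689204 on the minus strand.
CDC6: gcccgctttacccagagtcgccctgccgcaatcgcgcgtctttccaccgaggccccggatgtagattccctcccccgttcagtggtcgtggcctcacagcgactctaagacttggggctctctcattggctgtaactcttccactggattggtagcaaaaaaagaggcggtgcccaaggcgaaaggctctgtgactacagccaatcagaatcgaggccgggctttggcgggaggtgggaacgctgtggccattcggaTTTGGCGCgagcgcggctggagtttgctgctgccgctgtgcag
GINS2: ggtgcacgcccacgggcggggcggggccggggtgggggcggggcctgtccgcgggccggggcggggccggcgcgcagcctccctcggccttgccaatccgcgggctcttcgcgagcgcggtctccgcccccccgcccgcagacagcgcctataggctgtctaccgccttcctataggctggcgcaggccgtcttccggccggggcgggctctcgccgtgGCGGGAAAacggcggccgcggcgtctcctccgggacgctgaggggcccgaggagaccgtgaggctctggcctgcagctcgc
The word in CDC6 begins at base 8 counted from the start, and that in GINS2 at base -31, where it reads on the opposite strand. The search covered TTTGGCGC, TTTGCCGC, TTTCGCGC and TTTCCCGC on both strands, and a promoter with overlapping matches counted once. A match was present in 24 of 55 replication genes with a promoter in the table (43.6%), in 529 of 10038 measured genes (5.27%) and in 3.33% of 27305 promoters. It was present in 22 of 168 genes at least 1.5-fold lower (13.1%) and in 5 of 182 at least 1.5-fold higher (2.75%). ORC1, described next, had 0 matches in its window, and MCM5 had no promoter in the table. A match describes the letters in this window and does not show a bound factor.

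The largest differences of the list were in genes that license and open origins. MCM5, a subunit of the replicative helicase, stood at 2532 in the control, 2427 after 8 h, 1285 after 16 h and 1031 after 24 h, 1.89-fold lower at 16 h than at 8 h. CDC6, which loads that helicase, stood at 987 in the control, 822 after 8 h, 437 after 16 h and 465 after 24 h, 1.88-fold lower. Both were nearer the control at 8 h than at 16 h and 24 h. GINS2, a subunit of the complex that activates the helicase, stood at 838 in the control, 774 after 8 h, 430.4 after 16 h and 375 after 24 h. ORC1, the largest subunit of the origin recognition complex, stood at 349 in the control, 369.8 after 8 h, 209 after 16 h and 189 after 24 h. The log2 differences were -0.92 for MCM5, -0.91 for CDC6, -0.85 for GINS2 and -0.83 for ORC1. The other measured probe set of MCM5 and that of CDC6 lay on the same side, while the median over all probe sets of GINS2 was -0.45. CDT1 itself, the licensing factor whose protein cullin-RING ligases destroy in S phase, stood at 422 in the control, 394 after 8 h, 269 after 16 h and 219.8 after 24 h, a log2 difference of -0.55. Against the control, the list's median was -0.061 after 8 h, -0.48 after 16 h and -0.64 after 24 h, and 44, then 63 and 63 members lay below it.

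DNA repair and checkpoint genes were lower at 16 h as well. Of 36 measured members, 33 lay below 0 and 9 were at least 1.5-fold lower, with none at least 1.5-fold higher. BRIP1, a helicase that works with BRCA1, stood at 972 in the control, 892 after 8 h, 482 after 16 h and 552 after 24 h. BLM, the helicase of Bloom syndrome, stood at 718 in the control, 705 after 8 h, 412 after 16 h and 413 after 24 h. CHEK1, the kinase that halts the cycle when forks stall, stood at 684 in the control, 694 after 8 h, 413 after 16 h and 368 after 24 h. FANCM, a DNA translocase of the Fanconi pathway, was dimmer, at 168 in the control, 162 after 8 h, 88.1 after 16 h and 89.4 after 24 h. Each of the 4 was close to the control at 8 h and lower on both later arrays, with log2 differences of -0.89, -0.77, -0.75 and -0.88. Against the control the list's median was -0.049 after 8 h, -0.50 after 16 h and -0.50 after 24 h.

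Mitotic genes were lower as well, but with a different course. Of 61 measured members 60 lay below 0, 14 (23.0%) were at least 1.5-fold lower and 4 at least 2-fold lower. At 8 h the list stood slightly above the control, with a median of 0.087 and 48 members above it, and at 16 h and 24 h it stood below, at -0.21 and -0.19. CENPE, a kinesin that carries chromosomes to the spindle equator, had the lowest log2 difference of all measured genes, -1.87. Its intensity was 799 in the control, 867 after 8 h, 238 after 16 h and 633 after 24 h, so most of its difference at 16 h was not present on the 24 h array. KIF20B, a kinesin of cell division, stood at 654 in the control, 548 after 8 h, 214 after 16 h and 402 after 24 h, and ASPM, a protein of the spindle poles, at 3093 in the control, 3359 after 8 h, 1572 after 16 h and 3074 after 24 h. SMC2, a core subunit of condensin, stood at 1259 in the control, 1361 after 8 h, 671 after 16 h and 941 after 24 h. For KIF20B the median over all its probe sets was -0.24 against -1.35 for its brightest one. CENPE, KIF20B, ASPM and 2 further members were low on the 16 h array alone, and without these 5 the median was -0.25 with 9 members at least 1.5-fold lower. The promoter word TTTGAA, known as the CHR element of mitotic genes, was searched on both strands after the values were seen. It was present in 36 of 54 mitosis genes (66.7%) and in 9.90% of measured genes. It was also present in 22.0% of 168 genes at least 1.5-fold lower and in 14.8% of 182 at least 1.5-fold higher. CENPE had 0 matches in its window, while KIF20B had 2 and ASPM and SMC2 had 1 each.

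Genes that build ribosomes and pass material through nuclear pores were lower by smaller amounts. Of 34 MYC and nucleolar genes 33 lay below 0, with a median of -0.25. At least 1.5-fold lower were 2 members (5.88%), against 1.61% of all measured genes. RRP9, which binds the U3 small nucleolar RNA, stood at 329 in the control, 418 after 8 h, 266 after 16 h and 286 after 24 h. LYAR, a nucleolar protein, stood at 2000.0 in the control, 1946 after 8 h, 1275 after 16 h and 1339 after 24 h. Of 49 nuclear pore and transport genes 44 lay below 0, with a median of -0.21. At least 1.5-fold lower was 1 member (2.04%), near the share of all measured genes. That member was TPR, the filament protein of the pore's basket, which stood at 3498 in the control, 3055 after 8 h, 1833 after 16 h and 3221 after 24 h and was low on the 16 h array alone. NUP93, a subunit of the pore's inner ring, stood at 1074 in the control, 926 after 8 h, 646 after 16 h and 709 after 24 h, and the median over all its probe sets was -0.26 against -0.52. Of 52 splicing factors 46 lay below 0, with a median of -0.16 and none past 1.5-fold. SNRPF, a core protein of spliceosomal particles, stood at 3551 in the control, 3824 after 8 h, 2679 after 16 h and 2462 after 24 h. The 47 measured cytoplasmic ribosomal proteins, by contrast, had a median of 0.034, and 40 of them lay above 0.

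Some stress genes were highest on the 8 h array and near or below the control by 16 h. HMOX1, the heme-degrading enzyme, stood at 92.2 in the control, 230.1 after 8 h, 97.3 after 16 h and 77.6 after 24 h, a log2 difference of -1.24. SLC7A11, the cystine importer that feeds glutathione synthesis, stood at 153 in the control, 384 after 8 h, 166 after 16 h and 217 after 24 h, a difference of -1.22, and its other measured probe set gave -1.42. HMOX1 was back at the control level on the 16 h array and SLC7A11 nearly so. HMOX1 had no other measured probe set, and its control, 16 h and 24 h values lay near or below the median intensity of the arrays. GCLM, a subunit of the first enzyme of glutathione synthesis, stood at 305 in the control, 867 after 8 h, 487 after 16 h and 405 after 24 h and was still above the control at 16 h. These genes are textbook targets of NRF2, which binds the antioxidant response element. The GCLM promoter is shown because it holds a match to that element close to the start. It lies at chr1:93909381-93909680 on the minus strand of GRCh38.p14, from RefSeq, with the match in capitals.
GCLM: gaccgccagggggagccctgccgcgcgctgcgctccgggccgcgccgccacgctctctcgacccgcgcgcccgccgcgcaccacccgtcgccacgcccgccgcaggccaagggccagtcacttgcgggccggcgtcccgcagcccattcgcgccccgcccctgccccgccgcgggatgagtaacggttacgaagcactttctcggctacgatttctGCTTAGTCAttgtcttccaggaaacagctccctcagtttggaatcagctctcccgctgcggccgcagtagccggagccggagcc
The word TGACNNNGC, searched on both strands, begins here at base -34 and reads on the opposite strand. It was present in 9 of 25 NRF2 targets with a promoter in the table (36.0%) and in 15.4% of measured genes, so it is common.

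The NRF2 list as a whole had members on both sides of 0. Of 30 measured members 12 lay above 0 and 18 below, the median was -0.066, while 3 were 1.5-fold higher or more and 3 were 1.5-fold lower or more. The 3 higher ones were aldo-keto reductases, which reduce steroids and reactive carbonyls. AKR1C3 stood at 172 in the control, 551 after 8 h, 1056 after 16 h and 1061 after 24 h, 1.92-fold higher at 16 h than at 8 h. AKR1C2 and AKR1C1, named after their values were seen, had log2 differences of 0.80 and 0.69. For AKR1C1 the median over all its probe sets was 0.072. The AKR1C genes are near copies of each other, so their probe sets may read more than 1 of them and are not separate observations. They stood above the control at 8 h and higher still at 16 h, where HMOX1 and SLC7A11 stood lower than at 8 h. Against the control the list's median was 0.57 after 8 h, 0.46 after 16 h and 0.33 after 24 h.

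Heat shock genes were above the control at 8 h and below their 8 h level at 16 h. Of 19 measured members 18 lay below 0, the median was -0.33, and 3 (15.8%) were at least 1.5-fold lower. All 19 were above the control at 8 h, 6 at 16 h and 5 at 24 h. DNAJB1, a co-chaperone of HSP70, stood at 2307 in the control, 2748 after 8 h, 1298 after 16 h and 1391 after 24 h, 2.12-fold lower at 16 h, and its other measured probe set lay on the same side. For HSPA4L the median over all its probe sets was -0.44 against -0.73. HSPA4L and HSPH1, both of the HSP110 group of exchange factors, stood at 720.0, 976, 589 and 765 and at 2992, 3998, 2649 and 2366 on the control, 8 h, 16 h and 24 h arrays. BAG3, a co-chaperone in the disposal of misfolded protein, stood at 1159.6 in the control, 1281 after 8 h, 863 after 16 h and 956 after 24 h. DNAJB1, HSPH1 and BAG3 therefore ended below the control, while HSPA4L was below it at 16 h and above it at 24 h. The heat shock element, searched on both strands as 3 alternating units in either phase, was present in 3 of 17 members with a promoter (17.6%) and in 0.339% of measured genes. DNAJB1, HSPA4L, HSPH1 and BAG3 each had 0 matches, as did all 168 genes at least 1.5-fold lower with a promoter in the table.

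Cholesterol synthesis genes were mostly lower at 16 h than at 8 h. Of 19 measured members 17 lay below 0, the median was -0.36, and 8 (42.1%) were at least 1.5-fold lower, with none as much higher. The number above the control was 14 after 8 h, 2 after 16 h and 2 after 24 h. HMGCS1, which makes the substrate of the rate-limiting reductase, stood at 1186 in the control, 1788 after 8 h, 929 after 16 h and 974 after 24 h. ACAT2, an acetyl-CoA thiolase at the head of the pathway, stood at 571 in the control, 666 after 8 h, 356 after 16 h and 386 after 24 h. MSMO1, a sterol oxidase, stood at 2405 in the control, 2863 after 8 h, 1610.1 after 16 h and 1786 after 24 h, and SQLE, which makes squalene epoxide, at 512 in the control, 694 after 8 h, 396 after 16 h and 365 after 24 h. All 4 were highest at 8 h, and their log2 differences were -0.94, -0.90, -0.83 and -0.81. The median over all probe sets was -0.47 for HMGCS1 and -0.52 for SQLE.

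ATF4 targets, which supply amino acids and charged tRNAs under stress, were lower by less. Of 32 measured members 27 lay below 0, with a median of -0.16. At least 1.5-fold lower were 3 (9.38%), SLC7A11 among them, against 1.61% of all measured genes. SLC7A5, a leucine importer, stood at 2135 in the control, 2598 after 8 h, 1698 after 16 h and 1683 after 24 h, and PSAT1, an enzyme of serine synthesis, at 1022 in the control, 1009 after 8 h, 690.2 after 16 h and 598 after 24 h. ALDH1L2, a mitochondrial folate enzyme, stood at 198 in the control, 165 after 8 h, 79.7 after 16 h and 95.0 after 24 h, but the median over all its probe sets was 0.085. The 38 measured ER chaperones and XBP1 targets were not lower as a list: 16 lay above 0, the median was -0.020, and ERN1, the ER stress sensor that splices XBP1, was the 1 member at least 1.5-fold higher, at 2211 at 8 h and 3476 at 16 h, with a median over its probe sets of 0.36 against 0.65. CRELD2, an ER chaperone-like protein, was lower, at 1093 at 8 h and 753 at 16 h.

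**Figure D4:**
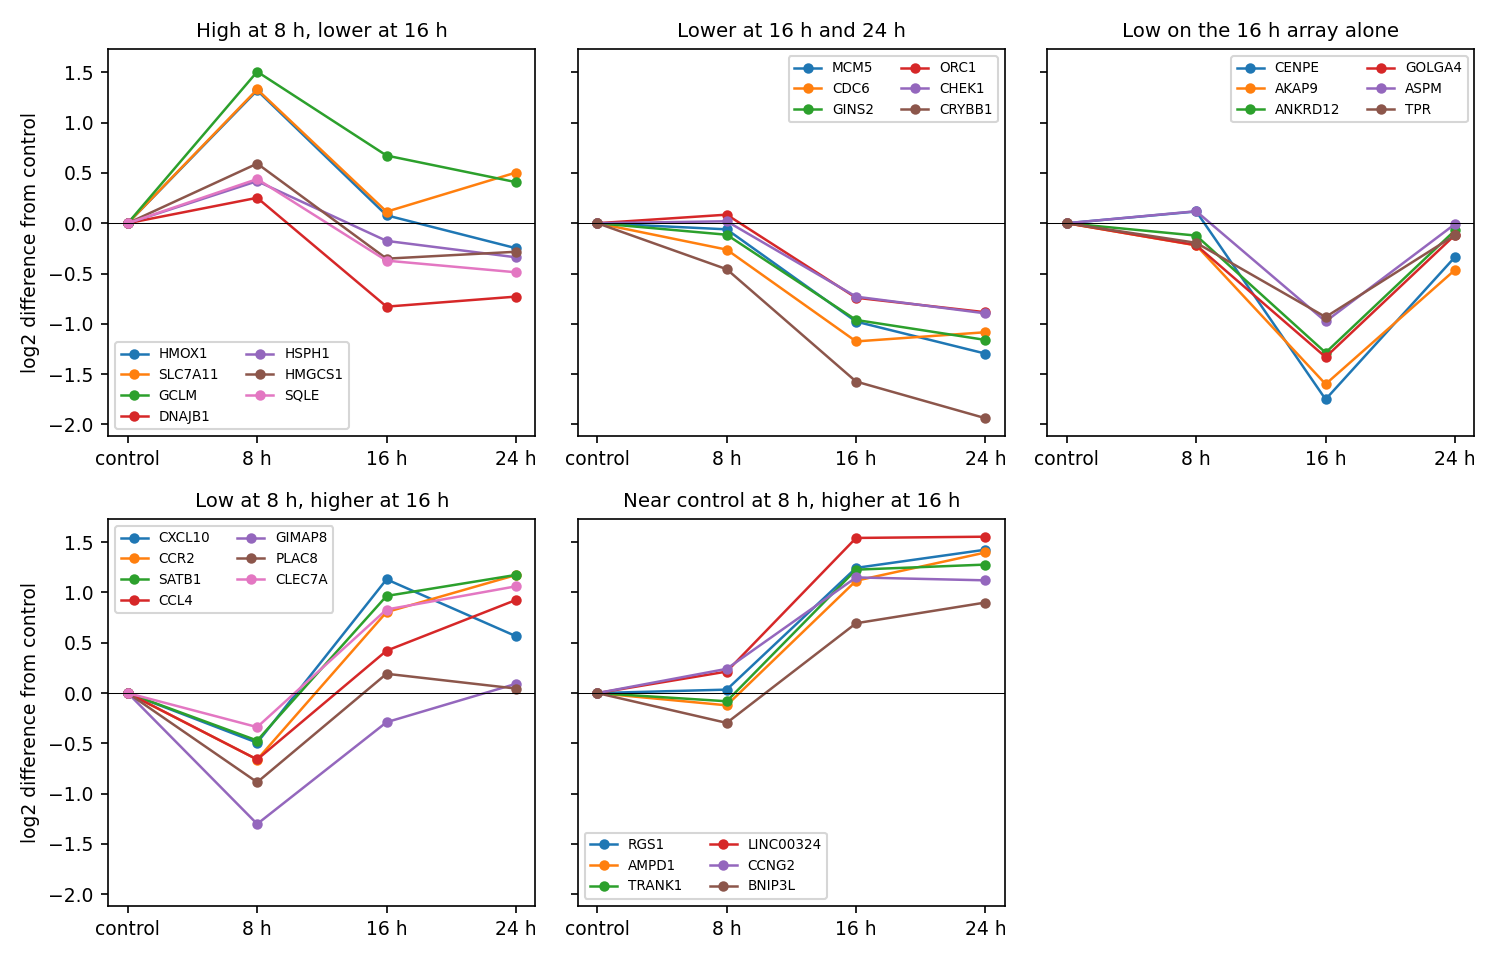
Log2 difference from the control array (vertical axis) on the control, 8 h, 16 h and 24 h arrays (horizontal axis), 1 line per gene and 1 array per point, in 5 panels of genes grouped by course after their values were seen. HMOX1 peaks at 8 h, MCM5 and CDC6 are low at 16 h and 24 h, CENPE is low at 16 h alone, CXCL10 is low at 8 h and high at 16 h, and RGS1 is near the control at 8 h and high at both later times.

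A set of 62 genes was low on the 16 h array alone among the treated arrays, at least 0.5 (log2) lower at 16 h than at both 8 h and 24 h. Only 5 genes were high there by the same measure, of which 2, CXCL10 and AP2B1, were past 2-fold. The 62 made up 12 of the 20 genes past 2-fold downward and 49 of the 201 past 1.5-fold, and 9 of the 12 lowest genes of the whole comparison. The 8 h, 16 h and 24 h arrays all entered the choice of these genes. Their depth at 16 h and their levels at 8 h and 24 h are therefore descriptions. Their median difference from the control was -0.078 at 8 h and -0.11 at 24 h. At 24 h 44 of the 62 were still below the control and 18 (29.0%) above it, against 52.6% of all measured genes above it. AKAP9, a scaffold of the centrosome and Golgi, stood at 588 in the control, 504 after 8 h, 194 after 16 h and 426 after 24 h. GOLGA4, a golgin that tethers vesicles, stood at 1514 in the control, 1301 after 8 h, 602 after 16 h and 1395 after 24 h. ANKRD12, an ankyrin repeat protein of the nucleus, stood at 3422 in the control, 3141 after 8 h, 1402 after 16 h and 3257 after 24 h, and all 3 of its other measured probe sets lay on the same side. SMC5, of the SMC5/6 repair complex, stood at 1278 in the control, 1343 after 8 h, 602 after 16 h and 942 after 24 h. RAD18, a ubiquitin ligase that acts on PCNA at stalled forks, stood at 120.2 in the control, 203 after 8 h, 72.8 after 16 h and 104 after 24 h, and FAM111B, a protease, at 2104 in the control, 1894 after 8 h, 855 after 16 h and 1234 after 24 h. TEX15, a germ cell protein of meiotic repair, stood at 364 in the control, 333 after 8 h, 108 after 16 h and 184 after 24 h. The median over all probe sets was -0.36 for AKAP9, -0.61 for RAD18 and -0.91 for TEX15, against -1.38, -1.48 and -1.62 for the brightest one. At 24 h ANKRD12 and GOLGA4 were back above their 8 h level, while RAD18, FAM111B and TEX15 were well below it.

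The genes low at 16 h alone had long genomic spans and were also brighter than most. Their median intensity over the 4 arrays was 599, against 384 for all measured genes. In 10 equal groups by mean level, 0.241% of the dimmest group were low at 16 h alone, 0.965% of group 7 and 0.482% of the brightest. The part of brightness was not tested. The median genomic span, from the first to the last base of the gene on GRCh38.p14, was 75300 bp for the 62 genes and 28133 bp for all measured genes. The 201 genes at least 1.5-fold lower had a median span of 54892 bp, and of 44403 bp without those low at 16 h alone. The 231 genes at least 1.5-fold higher had one of 29997 bp. AKAP9 spans 169812 bp on chromosome 7, ANKRD12 149205 bp on chromosome 18, GOLGA4 123609 bp on chromosome 3 and CENPE 92533 bp on chromosome 4. With the genes put into 10 equal groups by span, 0.161% of the shortest group were low at 16 h alone, 1.37% of group 8, 1.61% of group 9 and 0.724% of the longest. Among 44 measured centrosome, cilium and Golgi scaffold proteins 36 lay below 0, the median was -0.24 and 9 were at least 1.5-fold lower. Without the 4 of them that were low at 16 h alone the median was -0.16, and against the 24 h array in place of the 16 h array it was -0.046. SASS6, which builds the centriole cartwheel, stood at 268 in the control, 273 after 8 h, 137 after 16 h and 159 after 24 h, low on both later arrays. The 3'-to-5' ratio of ACTB was 1.95 after 8 h, 2.14 after 16 h, 1.99 after 24 h and 2.21 in the control, and its part in the low values was not tested.

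**Figure D5:**
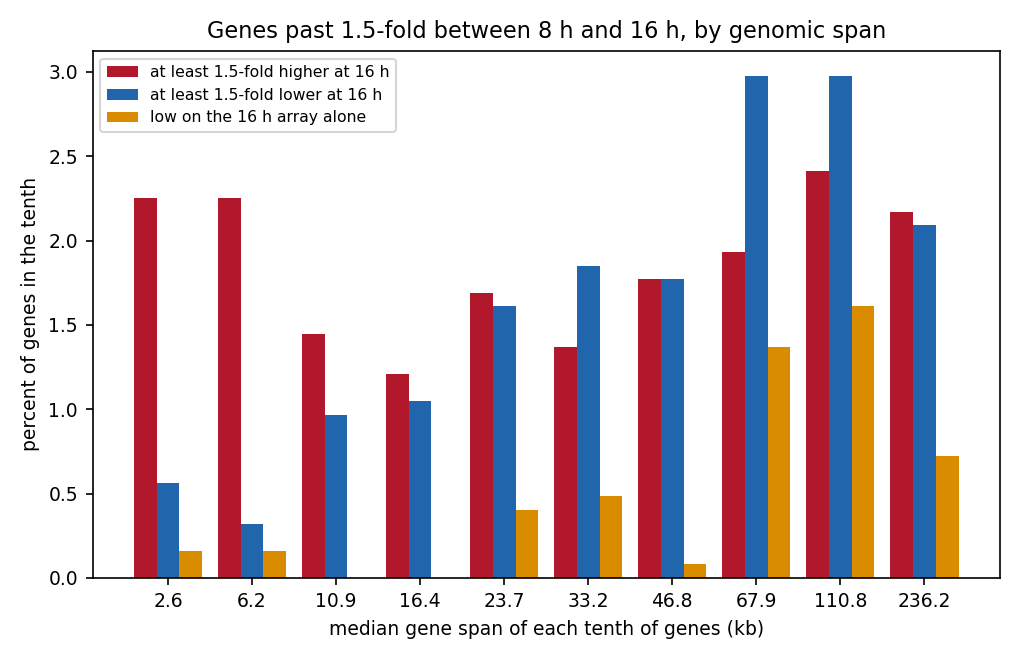
Percent of genes (vertical axis) at least 1.5-fold higher at 16 h, at least 1.5-fold lower at 16 h, or low on the 16 h array alone, in 10 equal groups of measured genes ordered by genomic span (horizontal axis, median span of each group in kb). The share at least 1.5-fold lower goes from 0.563% in the shortest group to 2.98% in groups 8 and 9 and 2.09% in the longest, and the share low at 16 h alone peaks at 1.61%.

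The rest of the 20 genes at least 2-fold lower followed no single course. CRYBB1, a crystallin best known from the lens, stood at 1840.4 in the control, 1340.4 after 8 h, 618 after 16 h and 480.1 after 24 h, with a lower value at each treated time. Its log2 difference was -1.12. MAL2, a membrane protein of apical sorting, showed the same order of values, at 913 in the control, 676 after 8 h, 337 after 16 h and 298 after 24 h. RIF1, ZNF91, ATAD5, SMC2, ASPM, ALDH1L2 and DNAJB1 make up the remainder, of which RIF1, ZNF91 and ASPM were low at 16 h alone. RIF1, which times replication and guides repair, stood at 1294 in the control, 1196 after 8 h, 560.3 after 16 h and 942 after 24 h, and ATAD5, which unloads PCNA, at 756 in the control, 782 after 8 h, 380.1 after 16 h and 477 after 24 h. Of the 7 other measured probe sets of RIF1 6 lay on the same side and 1 on the opposite side, at 0.38, and the median over all its probe sets was -0.36 against -1.09. For ZNF91 that median was -0.21 against -1.04.

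Several of the genes with the highest differences had stood below the control at 8 h. CXCL10, an interferon-induced chemokine, had the highest difference of all measured genes, 1.62. Its intensity was 265 in the control, 188 after 8 h, 580.3 after 16 h and 392 after 24 h. By the rule given above CXCL10 was among the 5 genes high on the 16 h array alone, though still above the control at 24 h. CCL4, a chemokine that NF-kB induces, stood at 452 in the control, 286 after 8 h, 605 after 16 h and 858 after 24 h. CCR2, the receptor for CCL2, stood at 258 in the control, 163 after 8 h, 451 after 16 h and 583 after 24 h, and SATB1, a chromatin organiser of lymphocytes, at 203 in the control, 146 after 8 h, 396 after 16 h and 458 after 24 h. In each case the 8 h value was the lowest of the 4 arrays. CLEC7A, the beta-glucan receptor dectin-1, stood at 1122 in the control, 887 after 8 h, 1995 after 16 h and 2341 after 24 h, and its 3 other measured probe sets lay on the same side. GIMAP8, a GTPase of lymphocytes, stood at 442 in the control, 179 after 8 h, 362 after 16 h and 471 after 24 h, and PLAC8 at 477 in the control, 258 after 8 h, 545 after 16 h and 493 after 24 h. Both were at least 2-fold higher at 16 h than at 8 h but close to the control by 16 h or 24 h, so their difference lay mostly in a low 8 h value. The median over all probe sets was 0.31 for SATB1, 0.80 for CCR2, 0.63 for CLEC7A and 0.62 for GIMAP8, against 1.44, 1.47, 1.17 and 1.01 for the brightest one. Over the 231 genes at least 1.5-fold higher, 167 stood below the control at 8 h and 217 above it at 16 h, 2 comparisons that share an array with the choice of genes.

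Some other high genes were near the control at 8 h. RGS1, which damps signals from chemokine receptors, stood at 3043 in the control, 3116 after 8 h, 7209 after 16 h and 8172 after 24 h, 2.31-fold higher, and its other measured probe set gave 1.55. AMPD1, an AMP deaminase, stood at 1435 in the control, 1319 after 8 h, 3112 after 16 h and 3780.3 after 24 h, 2.36-fold higher. TRANK1 stood at 123 in the control, 117 after 8 h, 289 after 16 h and 299 after 24 h, and SELENOP, a secreted selenium carrier, at 743 in the control, 768 after 8 h, 1845 after 16 h and 1701 after 24 h. RGS1, AMPD1 and TRANK1 were highest at 24 h. For SELENOP the other measured probe set lay on the opposite side of 0, at -0.23. NCAM1, the adhesion molecule CD56, differed from these in being above the control already at 8 h, at 77.4 in the control, 262 after 8 h, 612 after 16 h and 832 after 24 h, and its 3 other measured probe sets lay on the same side. The median over all its probe sets was 0.25 against 1.22 for the brightest. C16orf54, below the control at 8 h, stood at 447 in the control, 354 after 8 h, 767 after 16 h and 824 after 24 h. The remaining genes past 2-fold were SMIM14, HOPX, NT5E, AP2B1, SCN3A, EIF2AK4, MOXD1, TPBG, TMEM45A, the histone genes H2AC6 and H2BC12 and 3 noncoding RNAs. They were not all near the control at 8 h. SMIM14 stood at 106 in the control, 58.4 after 8 h, 126 after 16 h and 148 after 24 h. AP2B1 stood at 311 in the control, 195 after 8 h, 417 after 16 h and 272 after 24 h, high on the 16 h array alone. EIF2AK4, the kinase that senses uncharged tRNA, stood at 582 at 8 h and 1206 at 16 h, but its other measured probe set lay on the opposite side of 0. Several of these differences were smaller as the median over all probe sets of the gene, which was 0 for SMIM14, 0.24 for HOPX, 0.34 for MOXD1, 0.44 for EIF2AK4, 0.52 for TPBG, 0.58 for SCN3A and 0.71 for NT5E.

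Long noncoding RNAs supplied 3 of the 27 genes at least 2-fold higher. Of 715 measured lncRNAs 26 (3.64%) were past 1.5-fold upward and 6 (0.839%) downward, while among 11476 protein-coding genes 200 (1.74%) were higher and 190 (1.66%) lower. The medians were 0.023 and 0.015, and the difference between the 2 kinds of gene was not tested. Median intensity at 8 h was 139 for lncRNAs and 428 for protein-coding genes, and the part of low signal in these shares was not tested. LINC00324 stood at 137 in the control, 158 after 8 h, 398 after 16 h and 401 after 24 h, 2.51-fold higher at 16 h. LINC-PINT stood at 481 in the control, 399.7 after 8 h, 859 after 16 h and 1098 after 24 h, and LOC100996740 at 275 in the control, 123 after 8 h, 259.9 after 16 h and 344 after 24 h. For LINC-PINT the median over all its probe sets was 0.097 against 1.10 for the brightest, short of 2-fold. LINC00324 and LINC-PINT were as high or higher at 24 h.

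Most FOXO targets and mTOR brakes were higher at 16 h, while cell cycle brakes lay on both sides of 0. Of 26 measured members of the first list 21 lay above 0, the median was 0.31, and 4 (15.4%) were at least 1.5-fold higher, against 1.86% of all measured genes. CCNG2, a cyclin that FOXO factors induce in resting cells, stood at 505 in the control, 597 after 8 h, 1120.2 after 16 h and 1098 after 24 h, 1.88-fold higher, with 3 other measured probe sets on the same side. DEPTOR, an inhibitor in the mTOR complexes whose protein a cullin-RING ligase destroys, stood at 4532 in the control, 2561 after 8 h, 3966 after 16 h and 3842 after 24 h, so its 16 h value was still below the control, and the median over its probe sets was 0.32 against 0.63. TXNIP, which restrains glucose uptake, stood at 1798 in the control, 1621 after 8 h, 2470.5 after 16 h and 2873 after 24 h. TRIB1, a pseudokinase, stood at 774 in the control, 862 after 8 h, 1320.3 after 16 h and 1309 after 24 h, with a median over all its probe sets of 0. Of 27 cell cycle brakes 18 lay above 0 and 9 below, with a median of 0.23 and 2 at least 1.5-fold higher, CCNG2 and BTG1. BTG1, an antiproliferative factor, stood at 4342 in the control, 3760.3 after 8 h, 6331 after 16 h and 7024 after 24 h. SESN1, a sestrin that holds mTORC1 down, stood at 947 in the control, 788 after 8 h, 1177 after 16 h and 1388 after 24 h, just under 1.5-fold. CDKN2A, which encodes CDK inhibitor p16, was lower, at 1491 at 8 h and 999 at 16 h, and without probe sets marked as less specific its difference was 0.27.

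The 16 measured glucocorticoid receptor targets had the highest list median, 0.35. Of them 13 (81.25%) lay above 0, against 52.9% of all measured genes. At least 1.5-fold higher were 3 (18.75%), RGS1, TXNIP and TSC22D3, against 1.86% of all measured genes. TSC22D3, the leucine zipper protein GILZ, stood at 553 in the control, 514 after 8 h, 837 after 16 h and 842 after 24 h. PER2, a clock gene, lay below 0 at 568 at 8 h and 379 at 16 h, but its other measured probe set lay above 0. TXNIP, SESN1, BCL2L11, DDIT4, NFKBIA and DUSP1 are also in other lists, and with all genes counted irrespective of brightness its median was 0.11. No glucocorticoid treatment is named in the labels.

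Autophagy and lysosome genes were mostly higher, by small amounts. Of 43 measured members 35 (81.4%) lay above 0, against 52.9% of all measured genes, and the median was 0.18. Only 1 (2.33%) was at least 1.5-fold higher, near the 1.86% of all measured genes. NBR1, a cargo receptor of autophagy, stood at 827 in the control, 809 after 8 h, 1538 after 16 h and 1461 after 24 h, and the median over all its probe sets was 0.34. WIPI1, which marks the forming autophagosome, stood at 524 in the control, 492 after 8 h, 734 after 16 h and 838 after 24 h, MAP1LC3B, which coats it, at 701 in the control, 657 after 8 h, 949 after 16 h and 827 after 24 h, and OPTN, another cargo receptor, at 829.7 in the control, 635 after 8 h, 905 after 16 h and 879 after 24 h. Each had its lowest value at 8 h. Among genes of oxidative phosphorylation 48 of 53 lay above 0, with a median of 0.13 and none past 1.5-fold. NDUFB5, a subunit of complex I, stood at 5075 in the control, 5332 after 8 h, 7018 after 16 h and 6802 after 24 h, and COX4I1, of cytochrome oxidase, at 5777 in the control, 5895 after 8 h, 7328 after 16 h and 7433 after 24 h. For NDUFA10 and NDUFS7, the 2 members with the largest differences (0.45 and 0.43), other probe sets lay on the opposite side of 0. Of 36 glycolysis and citric acid cycle genes 20 (55.6%) lay above 0, near the share of all measured genes, with a median of 0.014. LDHA, lactate dehydrogenase A, stood at 16367 in the control, 16766 after 8 h, 13569 after 16 h and 12809 after 24 h.

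Apoptosis genes of the BCL2 family and its partners were mixed, with a median of 0.12. Above 0 lay 17 of 28 (60.7%), against 52.9% of all measured genes. At least 1.5-fold higher were 4 members (14.3%), against 1.86% of all measured genes, and none was as much lower. BNIP3L, a mitochondrial receptor of mitophagy, stood at 454 in the control, 369.8 after 8 h, 735 after 16 h and 848 after 24 h, 1.99-fold higher. BMF, a BH3-only killer, stood at 709 in the control, 878 after 8 h, 1317 after 16 h and 1247 after 24 h. TNFSF10, the death ligand TRAIL, stood at 153 in the control, 100.3 after 8 h, 167 after 16 h and 190.0 after 24 h, with a median over its probe sets of 0.41 against 0.74. BCL2, the founding survival protein, stood at 964 in the control, 908 after 8 h, 1483 after 16 h and 1515 after 24 h, but the median over all its probe sets was -0.084. PMAIP1, which encodes NOXA, lay on the other side of 0 at 434 in the control, 322 after 8 h, 217 after 16 h and 185 after 24 h, with a log2 difference of -0.57.

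Targets of p53 lay on both sides of 0. Of 24 measured members 11 (45.8%) lay above 0, against 52.9% of all measured genes, and the median was -0.0044. At least 1.5-fold higher were 3 (12.5%), against 1.86% of all measured genes, with none as much lower. PLK2, a kinase of the polo family, stood at 141 in the control, 147 after 8 h, 272 after 16 h and 264 after 24 h, and RRM2B, a ribonucleotide reductase subunit, at 174 in the control, 127 after 8 h, 193 after 16 h and 205 after 24 h. TP53INP1 stood at 2187 in the control, 2969 after 8 h, 4850.4 after 16 h and 4875 after 24 h, but its other probe set lay on the opposite side of 0, at -0.43. CDKN1A, the CDK inhibitor p21 and the best known target, was named after its values were seen, and it stood at 1324 in the control, 1092 after 8 h, 834 after 16 h and 641 after 24 h. HIF targets were likewise even, with 17 of 36 above 0 and a median of -0.019. P4HA1, a collagen prolyl hydroxylase, stood at 547 in the control, 652 after 8 h, 916 after 16 h and 923 after 24 h, and KDM3A, a histone demethylase, at 949 in the control, 933 after 8 h, 1263 after 16 h and 1272 after 24 h. The medians over their probe sets were 0.24 and 0.22, against 0.49 and 0.44.

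NF-kB targets had chemokines at both ends of their range. Of 25 measured members 18 (72.0%) lay above 0, against 52.9% of all measured genes, and the median was 0.12. The 2 at least 1.5-fold higher (8.0%, against 1.86% of all measured genes) were CXCL10 and CCL4. CCL5, another chemokine, lay on the other side of 0, at 675 in the control, 479 after 8 h, 335 after 16 h and 364 after 24 h. CFLAR, which restrains caspase-8, was at 997 at 8 h and 1327 at 16 h, a difference of 0.41 that was 0.10 over the median of its probe sets. Against the control the list's median was -0.27 after 8 h, 0.049 after 16 h and -0.12 after 24 h. Of 22 interferon response genes 15 (68.2%) lay above 0, with a median of 0.16 and 2 (9.09%) at least 1.5-fold higher. OAS1, which makes the activator of RNase L, stood at 286 in the control, 279 after 8 h, 479 after 16 h and 577 after 24 h. IRF9, a subunit of the interferon-activated complex ISGF3, stood at 249 in the control, 226 after 8 h, 356 after 16 h and 344 after 24 h, and ISG15, a ubiquitin-like modifier, at 184 in the control, 131 after 8 h, 195 after 16 h and 227 after 24 h. EIF2AK2, the kinase PKR, lay below 0 at 1253 at 8 h and 938 at 16 h, a difference of -0.42 that was -0.15 over the median of its probe sets. Of 22 immediate early and AP-1 genes 13 (59.1%) lay above 0, not far from the share of all measured genes, with a median of 0.17. At least 1.5-fold higher were 3 (13.6%), BTG1, DUSP4 and MAFF. DUSP4, a phosphatase of MAP kinases, stood at 2175 in the control, 1753 after 8 h, 2947 after 16 h and 2961 after 24 h, and MAFF, a small MAF protein, at 245 in the control, 252 after 8 h, 421 after 16 h and 418 after 24 h. For MAFF the median over its probe sets was 0.46 against 0.74.

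Only 9 of 30 listed replication-dependent histone genes were measured, and they split. H2AC6 stood at 67.6 in the control, 54.3 after 8 h, 126 after 16 h and 211 after 24 h, close to the lowest intensities at 8 h, and H2BC12 at 269.8 in the control, 237 after 8 h, 494 after 16 h and 876 after 24 h. H1-2, a linker histone, was lower, at 1384 in the control, 1157 after 8 h, 734 after 16 h and 780.3 after 24 h, and H1-3 at 144 at 8 h and 109.8 at 16 h. The median was 0.033. Most messages of these genes lack a poly(A) tail, and whether labelling was primed on such a tail is not given in the sources used here.

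Plasma cell and myeloma identity genes were modestly higher, with a median of 0.12. Above 0 lay 22 of 27 (81.5%), against 52.9% of all measured genes. At least 1.5-fold higher was 3.70% of the list, against 1.86% of all measured genes. CCR1, a chemokine receptor, was the 1 member at least 1.5-fold higher, at 4353 in the control, 3233 after 8 h, 5081 after 16 h and 5489 after 24 h. CD28, a costimulatory receptor found on myeloma cells, stood at 1714 in the control, 1559 after 8 h, 2307 after 16 h and 2449 after 24 h, and IRF4, the factor that myeloma cells depend on, at 4678 in the control, 3829.9 after 8 h, 5160.1 after 16 h and 5144 after 24 h. For IRF4 the median over its probe sets was 0.13 against 0.43. CD38, the antibody target, stood at 352 in the control, 314 after 8 h, 412 after 16 h and 432 after 24 h. Against the control the list's median was -0.16 at 8 h and 0.0032 at 16 h, and CCR1, IRF4 and CD38 each had their lowest value at 8 h.

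The drug's own pathway differed little at the RNA level. The 22 measured genes of neddylation and the COP9 signalosome, which removes NEDD8, had a median of -0.037 with none past 1.5-fold. NEDD8 stood at 2082 in the control, 2052 after 8 h, 2370.1 after 16 h and 2352 after 24 h. The 2 subunits of its activating enzyme were NAE1, at 2782 in the control, 3287 after 8 h, 2735 after 16 h and 2752 after 24 h, and UBA3, the catalytic one, at 2233 in the control, 1953 after 8 h, 2230.4 after 16 h and 2330.4 after 24 h. NUB1, which sends NEDD8 to the proteasome, had the largest difference of the list, 0.53, at 308 at 8 h and 446 at 16 h, with a median over its probe sets of 0.33. The cullins CUL1, CUL2, CUL3, CUL4A and CUL4B had differences of -0.04, 0.042, 0.012, -0.043 and 0.018. CUL5 stood apart at -0.45, with intensities of 880.1, 992, 724 and 1017 on the control, 8 h, 16 h and 24 h arrays, so it was again at its 8 h level at 24 h. UBE2M was not analysed here. The 40 measured cullin-RING scaffolds, adaptors and receptors had a median of 0.017, with none past 1.5-fold. DTL, the CUL4 receptor that targets CDT1, stood at 3446 in the control, 3159 after 8 h, 2150.2 after 16 h and 1824 after 24 h, and SKP2, the CUL1 receptor that targets p27 and CDT1, at 1419 in the control, 1530.2 after 8 h, 1129 after 16 h and 1149.9 after 24 h. FBXO5, which restrains the anaphase-promoting complex, stood at 884 at 8 h and 612 at 16 h. These 3 are also known as genes of dividing cells. The 37 proteasome subunits had a median of -0.059, with 29 below 0 and none past 1.5-fold, and PSMC3, a base ATPase, stood at 1664 at 8 h and 1186 at 16 h. The 71 mitochondrial ribosomal proteins had a median of -0.046, with 26 above 0 and none past 1.5-fold.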

How the data were processed

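Total RNA of 4 cultures of MM.1S cells, 1 per group, was extracted with Trizol and hybridised to expression arrays, per the labels. The deposited values are linear intensities of 54675 probe sets. How the authors summarised and normalized them is not given in the sources used here. Groups came from the sample labels.

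Values were raised to a floor at their 25th percentile (48.4), put on the log2 scale and joined to genes through the array's annotation. Of the probe sets, 41097 named 1 gene, 1801 several, and 11777 were not listed. Each gene was represented by its brightest probe set on average over the 4 arrays, and counted as measured if that average exceeded the median of all probe sets (a geometric mean intensity of 93.9). No measured gene was at the floor (0 on any array). No test was possible with single arrays, so genes past 2-fold or 1.5-fold were counted. The genes, lists (36, with 54 of 1274 genes in 2 or more) and comparisons were chosen with earlier results of these data known, and no list is independent evidence. Named genes were the 12 highest and 12 lowest differences, up to 4 per list with the largest difference, and NEDD8, NAE1, UBA3, the cullins and CDT1. The other genes past 2-fold, and those marked so, were named after their values were seen. Names, biotypes and spans came from RefSeq on GRCh38.p14. Bins by protein length, which had been planned, could not be made. The steps were checked on simulated data and run in Python 3.11.15 with numpy 2.4.6, pandas 2.3.3 and matplotlib 3.10.9. Alternatives changed the floor, filter, probe set choice, normalization, genes entered and later array.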

Additional observations from a re-analysis of the deposited data

How the results depend on the processing

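No paired analysis was possible because each group had 1 array. A difference or list median counted as kept if it moved by less than the SD between probe sets, 0.18, and a count if it stayed within 1.5 times. A sign counted as turned only where the main value was larger in size than that SD. Smaller values that crossed 0 counted as kept or moved, so more signs changed than are listed here. The median of ER chaperones and XBP1 targets, for example, was -0.020 and became 0.0019 at 24 h against 8 h, and it counted as kept. Over the alternatives 37 counts were kept and 7 moved. Of the list medians 424 were kept, 4 moved and 1 turned its sign. Of the values of the 159 named genes 1525 were kept, 112 moved and 17 turned their sign. Many of the 1525 could not have moved. A gene keeps its value by construction with no filter (159), the higher filter (128) or the lower floor (159). The same holds without the genes low at 16 h alone (147), and centring shifted all genes alike by a small amount (159). These kept values say nothing about stability. The cause of the exceptions was not tested. Genes at least 2-fold higher numbered 14 with a pseudocount of 32, 16 with the median over all probe sets and 50 at 24 h against 8 h. Genes at least 2-fold lower numbered 8 without those low at 16 h alone, a smaller set by construction, and 8 at 24 h against 8 h. Genes at least 1.5-fold higher numbered 139 with the filter at the 75th percentile, where fewer genes entered, and 367 at 24 h against 8 h. Medians moved to 0.20 for p53 targets without less specific probe sets, 0.11 for glucocorticoid receptor targets with no filter, and -0.046 for centrosome, cilium and Golgi scaffold proteins at 24 h against 8 h. The median of the 3 stromal markers was 0 with no filter, and -0.11 with the median over probe sets. With that median the sign turned for ALDH1L2 (0.085), BCL2 (-0.084), CD79B (-0.11), COL1A1 (-0.11), NDUFA10 (-0.34), OGDH (-0.17), PSMA3 (0.16), SELENOP (-0.23) and TP53INP1 (-0.43). Without less specific probe sets, named with _x_at or _s_at, it turned for CDKN2A (0.27), NDUFS7 (-0.28) and SELENOP (-0.23). At 24 h against 8 h it turned for ANKRD12 (0.052), CUL5 (0.036), GOLGA4 (0.10), SLC4A1 (0.11) and TPR (0.076). At the 75th percentile 3 lists had no value. The number of arrays limits the precision of every value, and low intensities lie close to background.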
